A study of Caenorhabditis elegans with 24 samples.

Results

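The fbxa genes of the nematode Caenorhabditis elegans were taken as every gene in the deposited values whose symbol was fbxa followed by a number. There were 159 such genes among 21689, all annotated as protein coding, and 97 of them (61%) had a mean value of at least 3 over all libraries, against 14482 of all genes (66.8%). These 97 were tested, and the other 62 are described by their values. Members just below the limit were fbxa-166 (mean 2.88), fbxa-73 (2.90) and fbxa-88 (2.95), and members just above it were fbxa-135 (3.07), fbxa-169 (3.11) and fbxa-36 (3.13). Of the 97, 15 had a group mean under 3 and so passed through the groups in which they were higher. Among these 15 were fbxa-66, fbxa-71, fbxa-125, fbxa-134, fbxa-135, fbxa-151, fbxa-155, fbxa-164, fbxa-196 and fbxa-201, which are described below. Their tests are conditional on the higher values in those groups.

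F-box proteins are the substrate receptors of SCF ubiquitin ligases, complexes in which a cullin scaffold carries a RING protein at one end and a Skp1-type adaptor at the other, with the F-box protein docked on the adaptor. The target bound by the F-box protein is ubiquitinated and usually sent to the proteasome. Nematodes have greatly expanded this family, and FBXA proteins pair an F-box with a FOG-2 homology (FTH) domain, while most of them have no assigned target. FBXA-75 and FBXA-158 are known partners of the cullin CUL-6 in a ligase of the intracellular pathogen response.

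RNA was sequenced from whole young adults on their first adult day, raised at 20 °C on OP-50-1 E. coli, with 6 genotypes and 4 libraries of each. The groups were the N2 wild type (wt), daf-2 and htz-1 alone, daf-16;daf-2, daf-2;htz-1, and the triple mutant that joins all 3. The daf-2 allele was e1370, the daf-16 allele mu86 and the htz-1 allele bon101. DAF-2 is the insulin/IGF-1 receptor, DAF-16 the FOXO transcription factor that it restrains, and HTZ-1 the histone variant H2A.Z. The sources used here do not give what bon101 changes in htz-1, the number of worms pooled or whether the 4 libraries of a genotype were separate cultures. The p-values therefore rest on the spread among these libraries, which may be technical. A library of every genotype was in each of the 4 labelled batches. The values are regularized log2 (rlog) values, in which a difference of 1 is a doubling before the shrinkage that the transformation applies to genes with few reads. They are not divided by gene length, so levels are compared between libraries and never between genes.

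Within a genotype, libraries had a mean correlation across genes of 0.951 to 0.987 with the others of their group. Markers of several cell types differed between the genotypes. Summed sperm markers (58 genes, major sperm protein genes among them) lay between 17.0 and 20.0 on the log2 scale in the 12 libraries without the htz-1 allele and between 14.2 and 16.3 in the 12 with it. Summed embryo markers (43 genes) lay between 9.90 and 10.1 in wt and between 13.2 and 13.9 in htz-1. The htz-1 transcript itself was at 10.6 to 11.3 in the 12 libraries without the allele and at 11.2 to 11.7 in those with it, so its level does not check the genotype. Values of daf-16 were 9.70 to 9.99 in daf-16;daf-2 and 10.2 to 10.5 in daf-2, and 8.47 to 9.72 in the triple mutant against 9.94 to 10.3 in daf-2;htz-1. In whole animals, fewer cells of a type and less RNA per cell cannot be told apart.

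The fbxa genes were spread over the 6 chromosomes, with 65 on V, 58 on III, 13 each on II and X, 6 on I and 4 on IV (WBcel235). With a gap of at most 10 kb as the limit, 106 of them stood in 28 runs of neighbouring fbxa genes, and 53 stood alone. The largest run held 22 members, from fbxa-61 to fbxa-14, within 85.6 kb of chromosome III (1239048 to 1324613). The symbol fbxa-41 belonged to 2 genes on X whose values were identical in every library, so the 159 genes have 1 symbol fewer. Neighbouring fbxa genes can be similar in sequence, and the sources used here do not say how reads shared by similar genes were assigned. SMART-Seq2 libraries carry no strand information, and 17 members overlapped a coding gene on the opposite strand, 9 of them tested.

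The first question was how the fbxa genes differed with the htz-1 allele, which could be asked in 3 backgrounds that share no library. In htz-1 against wt, 39 of the 97 rose and 13 fell (limma, adjusted p under 0.05), where 26.4% of all genes tested rose and 24.5% fell. With the allele in daf-2, 41 rose and 10 fell, beside 20.4% and 20.1% of all genes. In the triple mutant against its daf-16;daf-2 background, 31 rose and 19 fell, beside 24.1% and 24.3%. The median difference of the 97 was 0.52, 0.64 and 0.25 on the log2 scale, and that of all genes was 0.03, 0.04 and 0.03. Without the limit on the mean, so over all 159 members and 21689 genes, 57 rose and 14 fell in wt (22.2% and 16.9% of all genes), 65 and 12 in daf-2 (17.3% and 13.4%), and 40 and 20 in daf-16;daf-2 (19.9% and 17.1%). After centring of libraries on their medians, the third comparison had 42 higher and 15 lower members, beside 33% and 18.8% of all genes, and the median of all genes moved by 0.24. More members were higher than lower in each background, except in some settings of the third. It had 15 and 15 with a minimum mean of 5, which tested fewer members. It had 26 higher and 31 lower with array weights, and 17 and 23 without batch 1. The shares of all genes in these settings are not given, so whether the members or all genes shifted cannot be told from these counts.

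**Figure D1:**
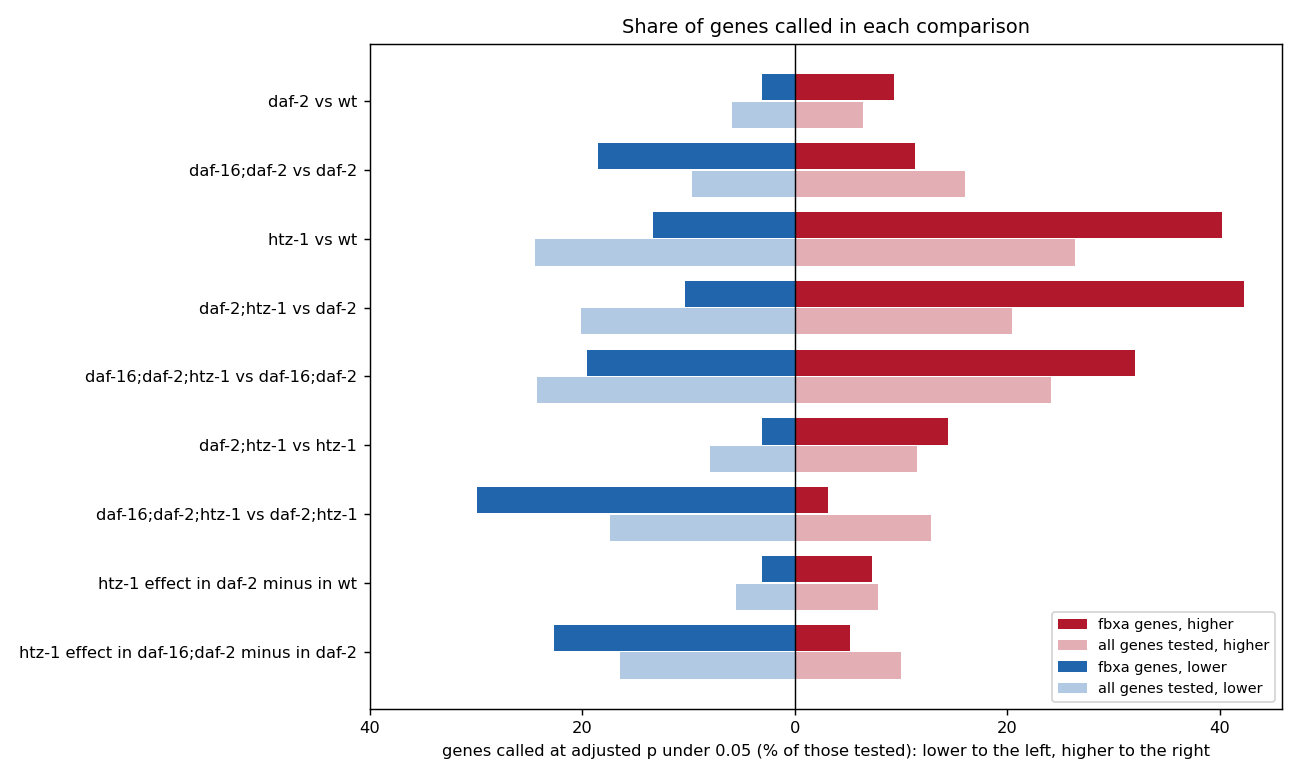
Share of genes called higher (right, red) or lower (left, blue) in each of the 9 comparisons, in percent of the genes tested. Dark bars stand for the 97 tested fbxa genes and pale bars for all 14482 genes tested. In daf-2;htz-1 against daf-2 the dark bar for higher genes (41 members) was longer than the pale one (20.4%), and in the triple mutant against daf-2;htz-1 the dark bar for lower genes (29 members) was longer than the pale one (17.4%).

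Across the 97 members, the differences with the htz-1 allele in wt and in daf-2 had a Pearson correlation of 0.811, beside 0.781 over all genes. The wt and daf-16;daf-2 backgrounds had one of 0.882, beside 0.920 over all genes. The lowest was that of the daf-2 and daf-16;daf-2 backgrounds, 0.641, beside 0.711 over all genes. These describe genes within the same libraries, and genes are not independent replicates. In all 3 backgrounds 22 members rose (22.7%, against 10.1% of all genes tested) and 7 fell (7.22%, against 13.5%). Called in none were 25 members (25.8%), and the matching share of all genes was not counted. The count of 22 fell to 14 without triple mutant 1, to 8 without batch 1 and to 10 without batch 3 or batch 4. The count of 7 fell to 4 without batch 2. With a minimum mean of 5 the count of 22 became 13, because the other risers had means under 5 and were not tested. In all 37 settings, the minimum mean of 5 among them, 4 of the risers and 4 of the fallers held. Left standing when each of the 24 libraries was removed in turn were 9 risers, namely fbxa-3, fbxa-15, fbxa-24, fbxa-26, fbxa-71, fbxa-153, fbxa-164, fbxa-182 and fbxa-189, and 6 fallers, namely fbxa-72, fbxa-84, fbxa-155, fbxa-196, fbxa-202 and fbxa-224.

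**Figure D2:**
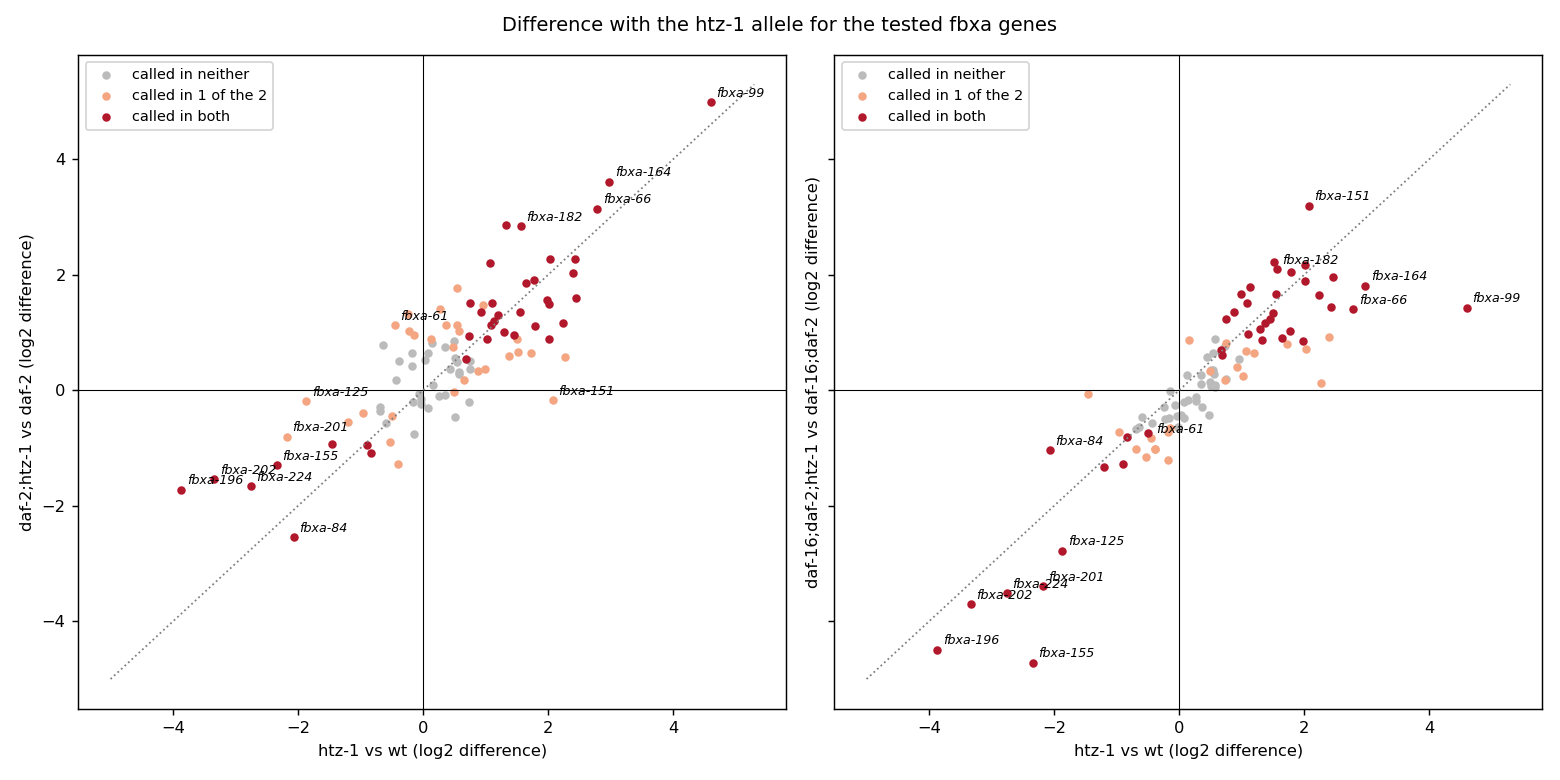
Difference with the htz-1 allele for each tested fbxa gene, as log2 differences, in wt (both x axes) against that in daf-2 (left) and in daf-16;daf-2 (right). Colours show in how many of both comparisons the gene was called, and the dotted line marks equal differences. The gene fbxa-99 lies at 4.61 and 4.99 on the left but at 1.43 on the right, and fbxa-155 lies at -2.34 and -1.30 on the left but at -4.72 on the right.

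The largest rise in wt and in daf-2 was that of fbxa-99 (WBGene00009490, chromosome V, 15981685 to 15982854). Its values in libraries 1 to 4 were 2.81, 4.85, 2.59 and 3.71 in wt, 3.96, 4.94, 2.17 and 3.36 in daf-2, and 5.51, 6.03, 5.82 and 5.55 in daf-16;daf-2. With the htz-1 allele they were 8.76, 7.25, 8.17 and 8.22 in the single mutant, 8.52, 8.33, 8.94 and 8.59 with daf-2, and 8.30, 7.29, 6.21 and 6.85 with daf-16;daf-2. All 12 libraries with the allele were above all 12 without it. The difference was 4.61 ± 0.50 (SE) in wt, adjusted p = 4.31e-08, and 4.99 ± 0.50 in daf-2, adjusted p = 5.15e-08. In daf-16;daf-2 it was 1.43 ± 0.50, adjusted p = 0.0217, which was no longer a call without triple mutant 1 (1.05). The gene oac-20, which overlaps fbxa-99 on the opposite strand, differed by 0.37, -0.09 and 0.02 in these comparisons (adjusted p = 0.473 to 0.968). Without strand, reads from the shared part of fbxa-99 and oac-20 cannot be told apart.

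The next largest in both were the rises of fbxa-164 (chromosome II, 1612788 to 1614072) and fbxa-66 (chromosome III, 2309792 to 2314035). Both genes passed the limit on the mean through the groups in which they were higher. In wt, fbxa-164 had the values 1.57, 1.54, 1.57 and 2.36, and in htz-1 it had 5.65, 4.71, 4.02 and 4.58. It had 1.82, 3.62, 3.19 and 2.04 in daf-2 against 6.46, 6.14, 6.34 and 6.17 in daf-2;htz-1. It had 1.5, 1.69, 2.71 and 1.46 in daf-16;daf-2 against 3.12, 2.83, 5.24 and 3.43 with the htz-1 allele. No pair of groups overlapped, and the rises were 2.98 ± 0.47 (adjusted p = 8.33e-06), 3.61 ± 0.47 (adjusted p = 1.56e-06) and 1.81 ± 0.47 (adjusted p = 0.00224). For fbxa-66 the rises were 2.79 ± 0.49, 3.15 ± 0.49 and 1.41 ± 0.49, and the last was not called without triple mutant 1 (1.20) or 3 (0.91). Its values in daf-2 split between 3.70 and 3.77 in libraries 1 and 2 and 1.74 and 1.96 in libraries 3 and 4, all below the 5.52 to 6.31 of daf-2;htz-1.

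The gene fbxa-182 (chromosome II, 2409633 to 2412749) rose by 1.56 ± 0.31 in wt and 2.84 ± 0.31 in daf-2, beside 2.10 ± 0.31 in daf-16;daf-2. Its values were 4.58 to 5.92 in wt, 4.12 to 5.66 in daf-2 and 4.63 to 5.66 in daf-16;daf-2, and the lowest of the 12 libraries with the allele was 6.63. Rises of fbxa-3 (chromosome II, 1818889 to 1820874) were 2.44, 2.28 and 1.44, and those of fbxa-71 (chromosome III, 2255822 to 2257247) were 2.46, 1.61 and 1.96. The gene fbxa-3 overlaps fbxc-19 on the opposite strand. Near-equal rises in wt and daf-16;daf-2 were seen for fbxa-153 (chromosome V, 15605673 to 15610384), with 2.02 ± 0.22 and 1.89 ± 0.22, beside 0.89 ± 0.22 in daf-2.

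In wt the largest falls were those of fbxa-196 (WBGene00020265, chromosome V, 6448656 to 6450217) and fbxa-202 (WBGene00020890, chromosome V, 6327280 to 6328865). The values of fbxa-196 were 7.01, 7.73, 6.20 and 7.48 in wt and 3.27, 3.19, 2.34 and 4.15 in htz-1. They were 5.32, 7.63, 6.72 and 6.25 in daf-2 against 4.57, 4.58, 5.08 and 4.82 in daf-2;htz-1. They were 7.69, 7.26, 7.04 and 7.76 in daf-16;daf-2 against 2.90, 3.69, 2.59 and 2.61 with the htz-1 allele. No library with the allele reached the lowest one of its own background, and daf-2;htz-1 kept the highest values among the genotypes with it. The differences were -3.87 ± 0.42 (SE) in wt and -1.72 ± 0.42 in daf-2, beside -4.49 ± 0.42 in daf-16;daf-2, with adjusted p = 3.74e-08, 0.00204 and 2.52e-09. For fbxa-202 they were -3.34, -1.54 and -3.71, each ± 0.34.

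The same order of backgrounds was found in other members. The gene fbxa-155 (WBGene00007323, chromosome III, 10007966 to 10010217) had 5.88, 6.82, 6.59 and 6.57 in wt against 4.26, 4.35, 4.59 and 3.28 in htz-1. It had 5.34, 6.51, 6.36 and 6.49 in daf-2 against 5.24, 4.44, 5.10 and 4.76 in daf-2;htz-1, and 7.62, 7.10, 7.51 and 7.26 in daf-16;daf-2 against 2.93, 2.05, 3.0 and 2.64 with the htz-1 allele. Its falls were -2.34 ± 0.32, -1.30 ± 0.32 and -4.72 ± 0.32, the last with adjusted p = 2.79e-11. The gene fbxa-224 (chromosome II, 7546780 to 7548144) differed by -2.76, -1.66 and -3.52. For fbxa-201 (chromosome V, 1975349 to 1977380) the values were -2.18 and -3.39 in wt and daf-16;daf-2, while -0.80 in daf-2 was not called (adjusted p = 0.166). For fbxa-125 (chromosome I, 10646478 to 10647841) they were -1.87 and -2.78, with -0.18 in daf-2 (adjusted p = 0.65).

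Sperm markers moved beside these 6 falling members. Of 56 tested sperm markers, 56 fell in htz-1 against wt (median -3.66), 52 fell and 1 rose with the allele in daf-2 (median -2.04), and 56 fell in the triple mutant against its daf-16;daf-2 background (median -3.84). Their summed level was 18.9 to 19.7 in wt, 17.0 to 19.1 in daf-2, 18.96 to 20.0 in daf-16;daf-2, 15.03 to 15.5 in htz-1, 15.9 to 16.3 in daf-2;htz-1 and 14.2 to 15.8 in the triple mutant. One of the 58, msp-58, was listed at or below 0 in every genotype. Their part in the falls was not tested.

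A fall of another shape was that of fbxa-84 (WBGene00011670, chromosome V, 15182440 to 15184132). It had 6.25, 6.15, 6.43 and 6.43 in wt and 6.65, 6.59, 6.13 and 6.13 in daf-2, against 4.76, 3.75, 4.25 and 4.24 in htz-1 and 3.93, 3.51, 3.24 and 4.66 in daf-2;htz-1. In daf-16;daf-2 it had 6.70, 7.08, 6.89 and 6.81, against 6.0, 5.57, 6.29 and 5.47 with the htz-1 allele. The triple mutant was above the other genotypes with the allele and overlapped wt and daf-2. The differences were -2.06 ± 0.28 in wt and -2.54 ± 0.28 in daf-2, beside -1.04 ± 0.28 in daf-16;daf-2, with adjusted p = 1.3e-06, 1.99e-07 and 0.00366.

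**Figure D3:**
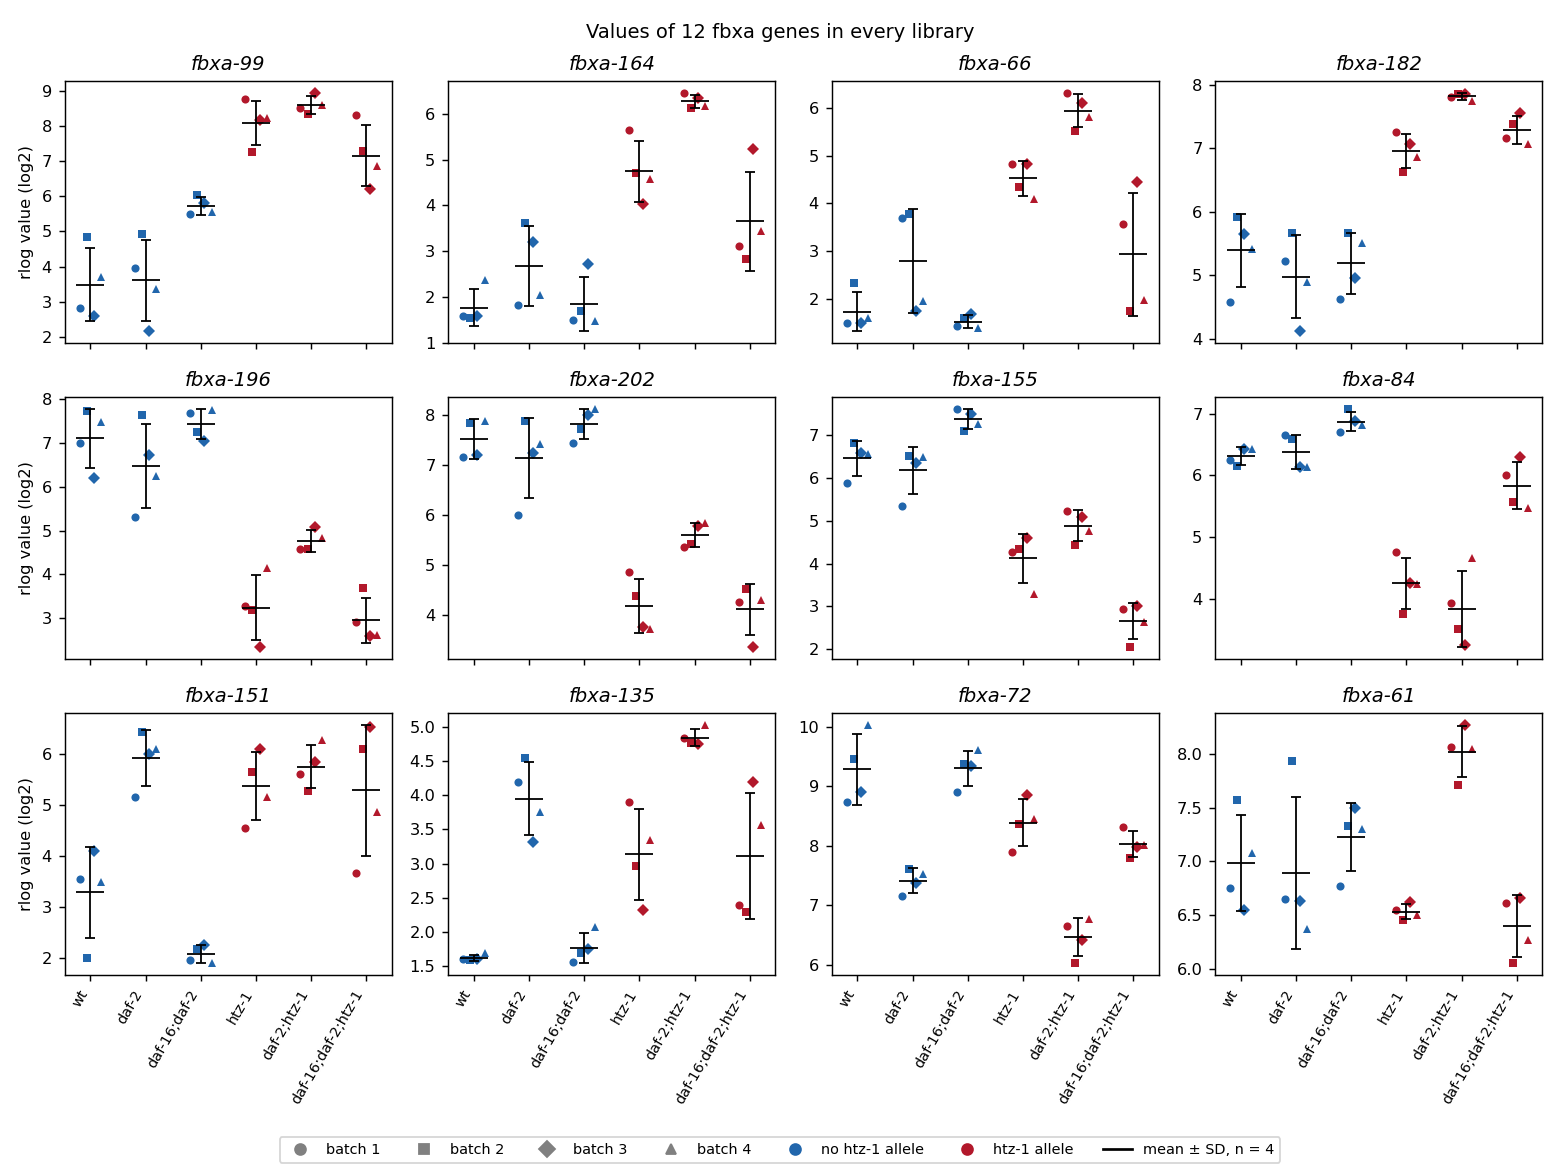
The rlog value (log2) of 12 fbxa genes in all 24 libraries by genotype, with the batch shown by the marker shape, genotypes with the htz-1 allele in red, and the mean ± SD (n = 4) in black. The top row shows members that rose with the allele (fbxa-182 at 6.63 or more with it and 5.92 or less without it), the middle row members that fell, and the bottom row members that differed with daf-2, daf-16 or the daf-2;htz-1 combination. Each panel has its own scale, which does not start at 0.

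Insulin signalling was examined by setting daf-2 against wt and daf-16;daf-2 against daf-2. These comparisons share the daf-2 libraries. In daf-2 against wt 9 of the 97 members rose and 3 fell, where 6.43% of all genes tested rose and 5.95% fell, and the median difference was 0.12 (all genes -0.03). In daf-16;daf-2 against daf-2 11 rose and 18 fell, beside 16% and 9.65% of all genes, with medians of 0.04 and 0.03. The 11 became 20 without daf-2 2, and the 18 became 28 when libraries were centred on their medians, with 10 higher, where 14.3% of all genes were lower and 11.5% higher. Centring moved the median by -0.16 for all genes and turned it to -0.12 for the members.

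The widest difference with daf-2 was that of fbxa-151 (WBGene00013840, chromosome III, 1265623 to 1266899), which lies in the run of 22. It passed the limit on the mean through the groups in which it was higher. It had 3.55, 2.01, 4.10 and 3.49 in wt, 5.15, 6.43, 5.99 and 6.08 in daf-2, and 1.97, 2.18, 2.27 and 1.92 in daf-16;daf-2. In htz-1 it had 4.55, 5.65, 6.09 and 5.16, in daf-2;htz-1 5.60, 5.27, 5.84 and 6.26, and in the triple mutant 3.67, 6.09, 6.51 and 4.85. All libraries of daf-2 were above those of wt and daf-16;daf-2, whereas the 3 genotypes with the htz-1 allele overlapped each other and daf-2. It rose by 2.62 ± 0.49 (SE) in daf-2 against wt, adjusted p = 0.000661, and fell by 3.83 ± 0.49 in daf-16;daf-2 against daf-2, adjusted p = 4.44e-06. With the htz-1 allele in both genotypes, the corresponding differences were 0.38 (adjusted p = 0.667) and -0.46 (adjusted p = 0.511).

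For fbxa-135 (WBGene00011539, chromosome V, 15402264 to 15404409) the daf-2 and daf-16 differences were present with and without the htz-1 allele. It passed the limit on the mean (3.07) through the groups in which it was higher. Its values were 1.61, 1.59, 1.61 and 1.70 in wt, 4.19, 4.54, 3.32 and 3.75 in daf-2, and 1.56, 1.69, 1.75 and 2.07 in daf-16;daf-2. They were 3.90, 2.97, 2.32 and 3.35 in htz-1, 4.83, 4.76, 4.75 and 5.03 in daf-2;htz-1, and 2.40, 2.29, 4.20 and 3.56 in the triple mutant. Within both sets of genotypes the libraries of the daf-2 member were the highest and did not overlap the others. The rise with daf-2 was 2.32 ± 0.37 without the allele (adjusted p = 0.000115) and 1.71 ± 0.37 with it (adjusted p = 0.00181). The fall with daf-16 was -2.18 ± 0.37 and -1.73 ± 0.37 (adjusted p = 0.000144 and 0.000978).

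The opposite order was that of fbxa-72 (WBGene00017962, chromosome V, 674886 to 676753). It had 8.73, 9.47, 8.91 and 10.04 in wt, 7.15, 7.61, 7.37 and 7.53 in daf-2, and 8.91, 9.37, 9.34 and 9.61 in daf-16;daf-2. With the htz-1 allele it had 7.89, 8.36, 8.86 and 8.45 in htz-1, 6.65, 6.03, 6.42 and 6.76 in daf-2;htz-1, and 8.32, 7.80, 7.98 and 8.01 in the triple mutant. In both sets the daf-2 member was lowest without overlap. It fell by 1.87 ± 0.25 in daf-2 (adjusted p = 1.03e-05) and by 1.93 ± 0.25 in daf-2;htz-1 against htz-1 (adjusted p = 4.3e-06), and rose with daf-16 by 1.89 ± 0.25 and 1.56 ± 0.25.

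Other members also moved with daf-2 or daf-16. The gene fbxa-69 (chromosome V, 15814232 to 15815971) rose by 1.5 ± 0.25 in daf-2 against wt and fell by 1.22 ± 0.25 in daf-16;daf-2 against daf-2, and it was called with the htz-1 allele in none of the 3 backgrounds (0.57, 0.29 and 0.05). The gene fbxa-189 (chromosome V, 17345214 to 17347781) rose by 1.40 ± 0.31 and fell by 2.02 ± 0.31. Its close neighbour fbxa-134 (chromosome V, 17350387 to 17352870) fell by 2.18 ± 0.46 in daf-16;daf-2, with 1.85 to 2.82 there and 3.88 to 4.80 in daf-2. Also lower in daf-16;daf-2 were fbxa-26 (-1.64) and fbxa-83 (-1.42), and higher were fbxa-74 (1.55 ± 0.26), fbxa-218 (1.39 ± 0.34) and fbxa-209 (1.47 ± 0.42), the last not called without daf-2 3 (1.07). The gene fbxa-209 overlaps fbxa-104 on the same strand and Y36E3A.2 on the opposite one, and the latter differed by 0.65 (adjusted p = 0.279). The gene fbxa-78 (chromosome III, 1257182 to 1258458), which overlaps fbxa-208 on the opposite strand, rose by 2.25 ± 0.37 in daf-2, from 3.84 to 4.74 in wt to 6.28 to 7.41. It lies in the run of 22 on the same strand as fbxa-151 and has the same exonic length (928 bases). Whether reads of fbxa-78 and fbxa-151 were shared was not tested. The gene fbxa-192 differed by -1.13 ± 0.30 in daf-2, a call that ended without daf-2 4 (-0.88).

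In daf-16;daf-2 against daf-2, fbxa-99 rose by 2.12 ± 0.50 (adjusted p = 0.00369), and its opposite-strand neighbour oac-20 rose by 5.0 ± 0.41 (adjusted p = 4.52e-09). In daf-2 against wt, oac-20 fell by 3.33 ± 0.41 while fbxa-99 differed by 0.12 (adjusted p = 0.915).

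With the htz-1 allele in both genotypes compared, rises outnumbered falls with daf-2 and falls outnumbered rises with daf-16, among members and all genes tested. In daf-2;htz-1 against htz-1, 14 of the 97 rose (14.4%) and 3 fell (3.09%), beside 11.5% and 8.04% of all genes. The median was 0.33 (all genes 0.03). In the triple mutant against daf-2;htz-1, 3 rose (3.09%) and 29 fell (29.9%), beside 12.8% and 17.4%. The median was -0.49 (all genes -0.06). Single libraries moved these counts, with 8 in place of 14 without htz-1 3, and 17, 15 and 18 in place of 29 without daf-2;htz-1 1, triple mutant 2 and triple mutant 4. With array weights the 29 became 51, and the shares of all genes in these settings are not given. Centring libraries on their medians gave 5 higher and 21 lower in place of 3 and 29, beside 14.5% and 14.8% of all genes, and moved the median of all genes by 0.11. Both daf-2 comparisons, which share no library, called 4 members higher (fbxa-26, fbxa-69, fbxa-98 and fbxa-135, beside 2.09% of all genes) and 2 lower (fbxa-72 and fbxa-192, beside 1.46%). Of these, fbxa-69, fbxa-135 and fbxa-72 remained without any 1 of the 24 libraries. None was called in opposite directions in both (beside 1.01%). Both daf-16 comparisons called 7 members lower (7.22%, beside 3.6% of all genes), of which fbxa-69, fbxa-135 and fbxa-189 remained without any 1 library, and fbxa-72 higher (1.03%, beside 3.52%), with fbxa-99 and fbxa-155 in opposite directions (beside 4.69%).

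The mean of daf-2;htz-1 was the highest of the 6 genotype means for 43 of the 97 members (44.3%), against 21.5% of all genes tested. That of daf-16;daf-2 was highest for 20 members (20.6%, beside 24.7% of all genes) and that of htz-1 for 16 (16.5%, beside 16.1%). That of daf-2 was highest for 10 (10.3%, beside 12.8%). The triple mutant was highest for 5 (5.15%, beside 15.4%) and wt for 3 (3.09%, beside 9.6%). Among the 62 members with low values, whose means ran from -1.84 to 2.95, daf-2;htz-1 was highest for 31. The matching share of all genes with low values was not counted, so this count has nothing to be read against. Very small differences set the highest genotype for some of them, such as fbxa-100, at -1.88 to -1.75 in every library. The summed level of all 159 members, which the most abundant ones dominate, was 13.7 to 13.9 in the 4 libraries of daf-2;htz-1, 13.4 to 13.7 in those of htz-1, 13.3 to 13.7 in those of daf-2, 13.2 to 13.49 in those of daf-16;daf-2, 13.2 to 13.8 in those of the triple mutant and 12.9 to 13.5 in those of wt.

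**Figure D4:**
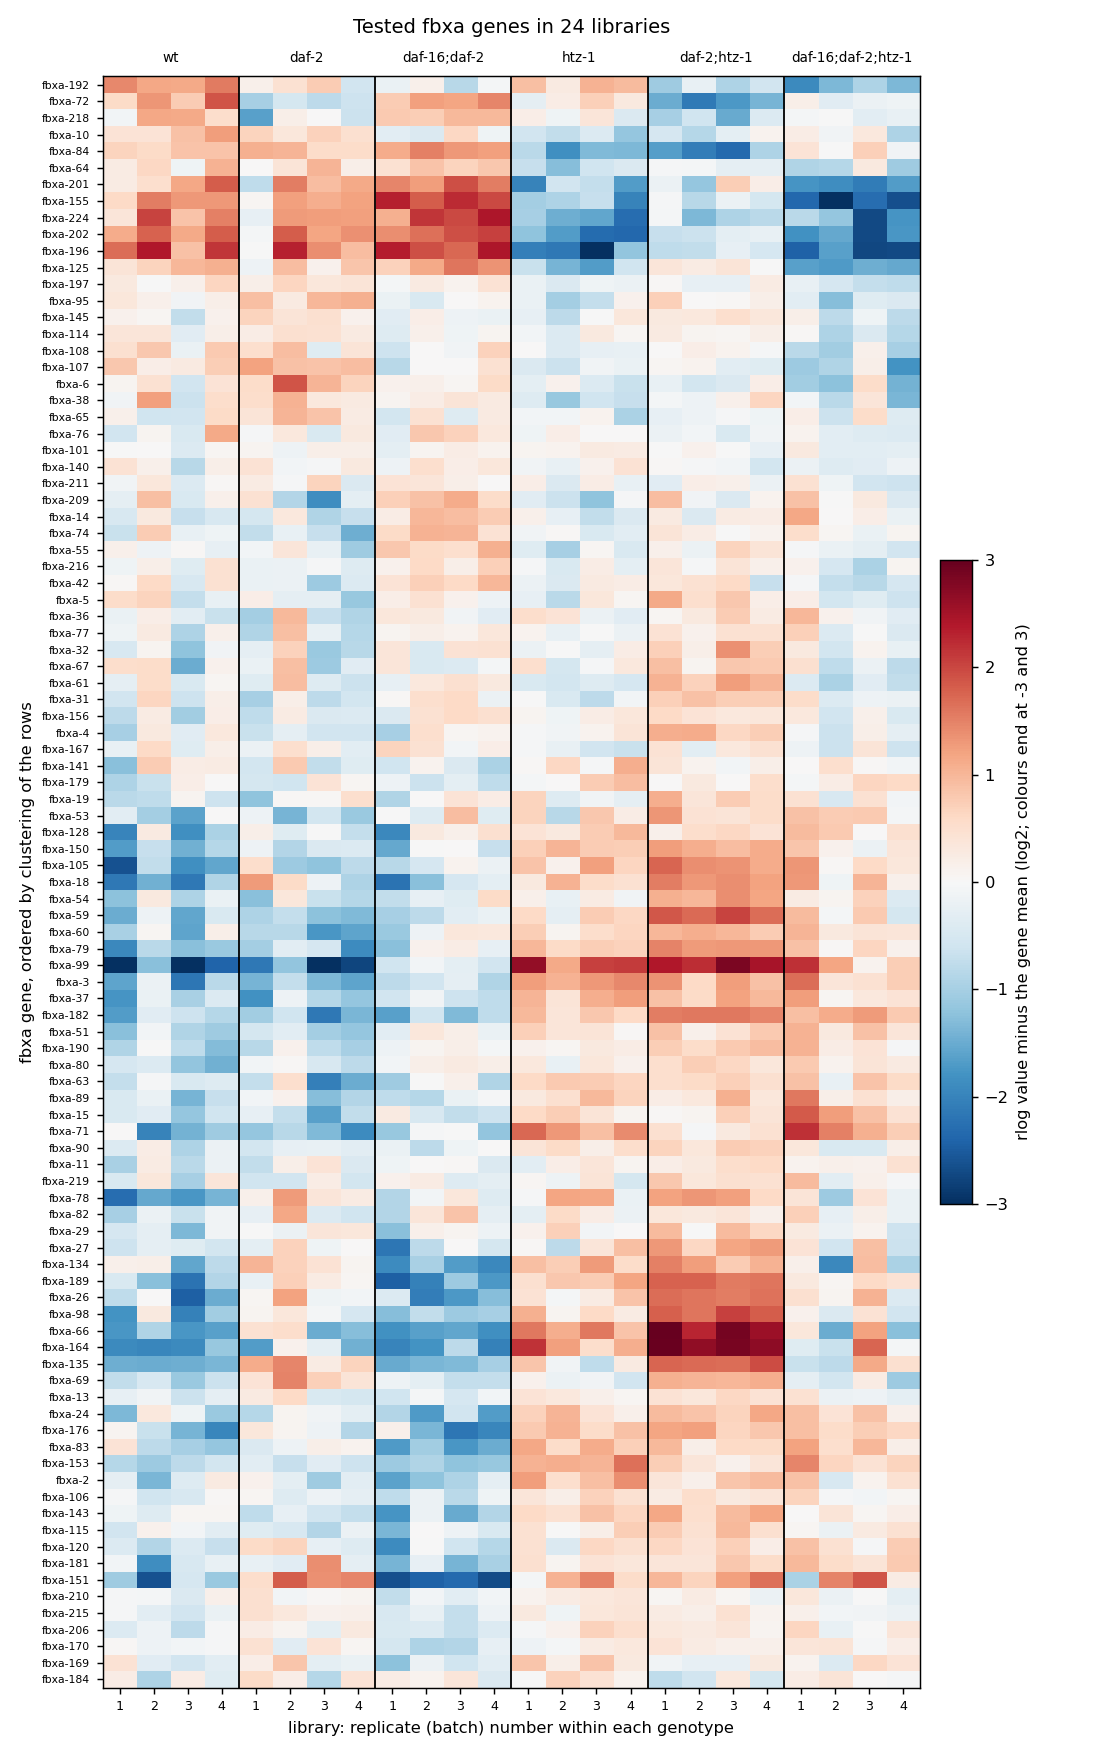
Values of the 97 tested fbxa genes (rows, ordered by similarity) in the 24 libraries (columns, grouped by genotype and numbered by batch), each as the rlog value minus the gene's own mean on the log2 scale. Red is above and blue below the mean, and the colours end at -3 and 3. The lower part holds members that were redder with the htz-1 allele and most of all in daf-2;htz-1. That genotype had the highest mean for 43 of the 97, where it did for 21.5% of all genes tested. A block near the top holds fbxa-155, fbxa-196, fbxa-201, fbxa-202 and fbxa-224, which were bluer with the allele.

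Among the 29 members that fell in the triple mutant against daf-2;htz-1 were fbxa-66, fbxa-164, fbxa-98 and fbxa-61. The gene fbxa-66 had 6.31, 5.52, 6.10 and 5.81 in daf-2;htz-1 against 3.57, 1.75, 4.44 and 1.98 in the triple mutant, a difference of -3.0 ± 0.49 (SE), adjusted p = 5.2e-05. For fbxa-164 the difference was -2.62 ± 0.47 and for fbxa-98 -1.93 ± 0.35, without overlap of the groups. The gene fbxa-61 (WBGene00022486, chromosome III, 1239048 to 1242799), at one end of the run of 22, had 8.06, 7.71, 8.27 and 8.04 in daf-2;htz-1, a range that also held daf-2 2 (7.93). It had 6.55, 6.46, 6.62 and 6.50 in htz-1 and 6.61, 6.06, 6.66 and 6.27 in the triple mutant, so neither group overlapped it. The differences were 1.49 ± 0.28 from htz-1 (adjusted p = 0.000424) and -1.62 ± 0.28 in the triple mutant (adjusted p = 9.43e-05). Against daf-2 it rose by 1.12 ± 0.28, while the triple mutant was 0.82 below daf-16;daf-2, a call that ended without triple mutant 2 (-0.71), without daf-16;daf-2 3 (-0.73) or with libraries centred on their medians. Higher in the triple mutant than in daf-2;htz-1 were fbxa-84 (2.00 ± 0.28), fbxa-72 (1.56 ± 0.25) and fbxa-71 (1.07 ± 0.39). The call of fbxa-71 (adjusted p = 0.0405) ended without any 1 of the 4 libraries of daf-2;htz-1 or without triple mutant 1 or 2 (0.80 to 1.14).

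Neuron markers and pals genes were also highest in daf-2;htz-1, while the summed intestine, body muscle, embryo and germline markers were not. The summed neuron markers (9 genes, none at 0) were 12.3 to 12.4 there and 11.1 to 11.9 in the other 5 genotypes, and 6 of 8 tested ones rose with the htz-1 allele in daf-2. The summed level of 37 pals genes, many of which are induced in the intracellular pathogen response, was 11.5 to 11.6 in daf-2;htz-1, with 4 of them at or below 0, and 8.62 to 10.7 elsewhere. Their part in the fbxa levels was not tested.

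Whether the htz-1 difference depended on the background was tested directly. The difference in daf-2 minus that in wt was called higher for 7 and lower for 3 of the 97 members, beside 7.78% and 5.57% of all genes, with a median of 0.05 (all genes 0.04). None of these 10 calls held in all 37 settings. The median was -0.05 with libraries centred on their medians. The 7 became 4 without wt 2, and the 3 became 1 without daf-2 2 or htz-1 3. The largest positive values were those of fbxa-196 (2.15 ± 0.59 (SE), adjusted p = 0.018), fbxa-202 (1.80 ± 0.49) and fbxa-125 (1.68 ± 0.42), all less lowered by the allele in daf-2. The largest negative values were those of fbxa-151 (-2.24 ± 0.70, adjusted p = 0.0338), fbxa-78 (-1.69 ± 0.53) and fbxa-153 (-1.13 ± 0.32). Calls of fbxa-151 and fbxa-78 each ended without several single libraries (-2.27 to -1.82 and -1.69 to -1.44).

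In daf-16;daf-2 minus daf-2, 5 were higher and 22 lower, beside 10% and 16.5% of all genes, with a median of -0.38 (all genes -0.11). Centring libraries on their medians gave 8 higher and 16 lower, beside 15.6% and 12.3% of all genes, and moved the median of all genes by 0.28. The most negative values were those of fbxa-99 (-3.55 ± 0.71, adjusted p = 0.000887), which rose less in daf-16;daf-2, and of fbxa-155 (-3.42 ± 0.46, adjusted p = 1.52e-05) and fbxa-196 (-2.77 ± 0.59), which fell more there. The most positive were those of fbxa-151 (3.37 ± 0.70, adjusted p = 0.00116), fbxa-83 (1.56 ± 0.45) and fbxa-84 (1.5 ± 0.40), the last not called with array weights. For fbxa-61, which went in opposite directions, the difference was -1.95 ± 0.39 (adjusted p = 0.000904).

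Calls were also compared between neighbouring fbxa genes. In the run of 22, 16 members were tested, of which 7 rose in htz-1 against wt, 8 rose with it in daf-2, and 4 rose and 1 fell in the triple mutant against its daf-16;daf-2 background. The adjacent genes fbxa-151 and fbxa-32 differed by 2.07, -0.17 and 3.20 and by 0.36, 1.13 and -0.30 in these comparisons, with fbxa-151 called in the first and the last and fbxa-32 in daf-2. The run of 8 from fbxa-55 to fbxa-51 on chromosome III (933422 to 963833) had all 8 tested. In these comparisons 3, 4 and 1 of them were higher, and 1 was lower in each. Of all 97 members 40.2%, 42.3% and 32.0% rose there, beside 26.4%, 20.4% and 24.1% of all genes tested. Falls were 13.4%, 10.3% and 19.6% of the 97, beside 24.5%, 20.1% and 24.3%. Whether runs differ from other members was not tested. Of 35 pairs of tested neighbours within runs, both were called in the same direction in 5, 9 and 2 pairs and in opposite directions in 0, 1 and 3 pairs. Only 1 gene was called in 20, 18 and 14 pairs and neither in 10, 7 and 16. Pairs of other neighbouring genes were not counted.

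**Figure D5:**
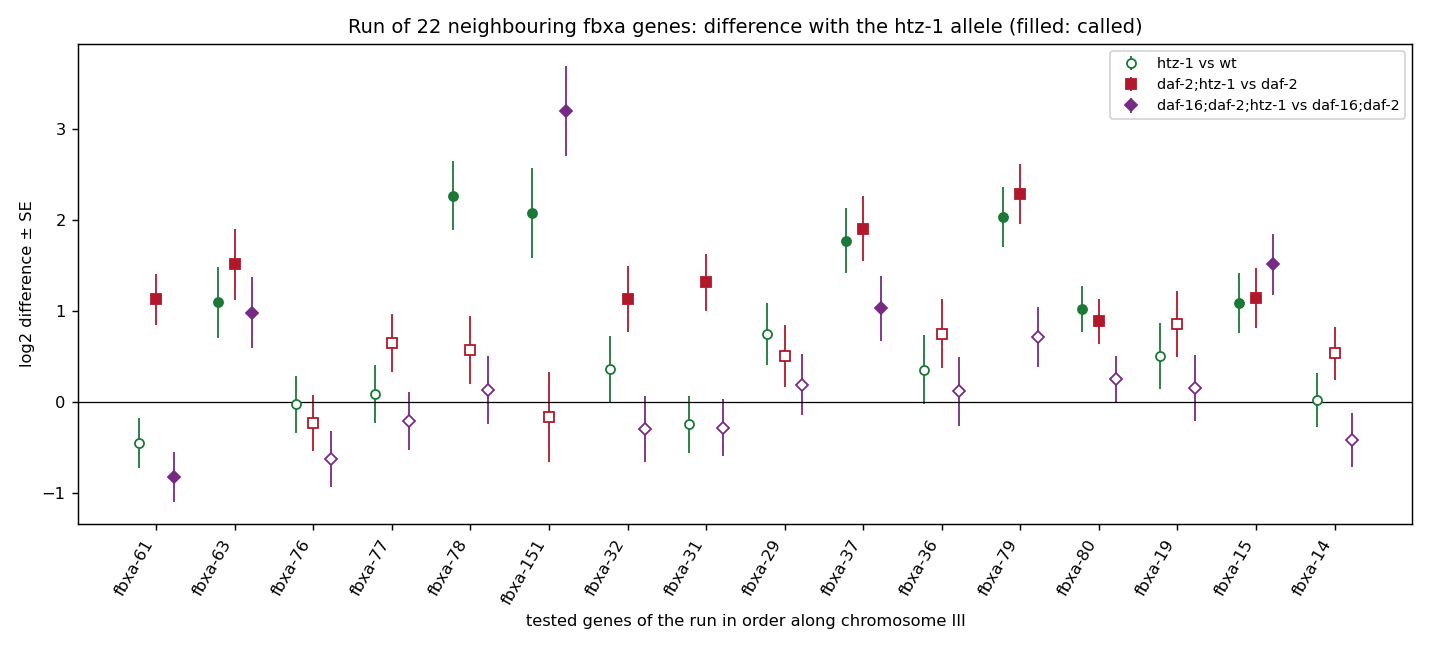
Log2 difference with the htz-1 allele (± SE) for the 16 tested genes of the largest run, in their order along chromosome III, in wt (circles), daf-2 (squares) and daf-16;daf-2 (diamonds). Filled markers were called at adjusted p under 0.05. The gene fbxa-151 lies at 2.07 and 3.20 in wt and daf-16;daf-2 but at -0.17 in daf-2. Filled are 8 of the 16 squares, all above 0, where 42.3% of all 97 members and 20.4% of all genes tested rose.

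The receptors of the CUL-6 ligase had low values. The gene fbxa-158 (WBGene00015602, chromosome II, 1619814 to 1621280) had 1.69, 3.02, 1.41 and 2.21 in wt, 1.37, 1.32, 1.37 and 1.45 in daf-2, and 1.38, 1.46, 1.49 and 1.36 in daf-16;daf-2. With the htz-1 allele it had 2.90, 3.58, 3.55 and 2.76 alone, 3.44, 3.35, 3.48 and 3.60 with daf-2, and 3.26, 2.02, 2.64 and 2.78 with daf-16;daf-2. The libraries with the allele were above those without it in both mutant backgrounds, and overlapped in wt. Its mean of 2.37 kept it out of the test. In a fit of all 21689 genes it rose by 1.11 ± 0.30 (SE), 2.09 ± 0.30 and 1.25 ± 0.30 with the allele (adjusted p = 0.00457, 1.02e-05 and 0.00174). The libraries of daf-2 and daf-16;daf-2 all lay at a near-constant low level of 1.32 to 1.49. Differences and p-values against such a level are uncertain, and the same holds for fbxa-75. The gene fbxa-75 (WBGene00022476, chromosome III, 1303714 to 1305461) was between 0.63 and 1.34 in the 12 libraries without the allele and between 0.69 and 2.39 in those with it. In the fit of all 21689 genes it was called in daf-2 (0.89 ± 0.30, adjusted p = 0.0257).

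Their partners in that ligase passed the limit on the mean and were tested. They are the cullin gene cul-6, the adaptor genes skr-3, skr-4 and skr-5, and the RING protein gene rcs-1. All 5 rose with the htz-1 allele in daf-2, skr-5 from a mean of 4.41 ± 0.50 (SD, n = 4) to 8.53 ± 0.08, a difference of 4.12 ± 0.41 (SE, adjusted p = 3.6e-08). The others rose by 1.74 (cul-6), 1.91 (skr-3), 1.58 (skr-4) and 1.23 (rcs-1). In htz-1 against wt, cul-6 (1.48), skr-3 (1.29) and skr-5 (3.08) rose, while skr-4 was at 0.57 and rcs-1 at -0.02. In the daf-16;daf-2 background skr-5 rose by 2.26, cul-6 was at 0.72, called but not without daf-16;daf-2 1 or triple mutant 1 (0.52 each), and skr-3, skr-4 and rcs-1 were at 0.28, -0.30 and -0.29. For all 5 the htz-1 difference was smaller in daf-16;daf-2 than it was in daf-2, from -1.02 for cul-6 (adjusted p = 0.0467) to -1.88 for skr-4. The call of cul-6 ended without most single libraries (-1.02 to -0.87) and that of skr-5 (-1.86) without triple mutant 2 (-1.45).

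Among the shared subunits that canonical SCF ligases use, cul-1, the cullin gene, fell with the htz-1 allele by 1.43 ± 0.19 in wt and 1.40 ± 0.19 in daf-2, beside 0.77 ± 0.19 in daf-16;daf-2, the last not called when libraries were centred on their medians. Of 17 tested core and neddylation genes 4 rose and 2 fell in htz-1 against wt, beside 26.4% and 24.5% of all genes. Of 19 tested skr genes, which encode Skp1-type adaptors, 13 rose and 2 fell there, 8 rose and 2 fell in daf-2, and 13 rose and 3 fell in daf-16;daf-2, where the shares of all genes were 20.4% and 20.1% in daf-2 and 24.1% and 24.3% in the last.

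Of 10 F-box genes with assigned roles outside the family, mfb-1 rose in all 3 backgrounds (1.64, 1.65 and 1.14). The gene fog-2, which gives the FTH domain its name and promotes sperm formation in the hermaphrodite germline, fell by 0.54, 0.54 and 0.52.

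The other large F-box families were counted in the same comparisons, where 26.4%, 20.4% and 24.1% of all genes rose with the allele. Only 37 of 103 fbxb genes and 29 of 48 fbxc genes reached the mean of 3 and were tested. The summed level of all 103 fbxb genes was 8.85 to 9.05 in wt, 11.24 to 11.56 in htz-1 and 11.56 to 12.14 in the triple mutant. How many of the tested genes passed the limit through the groups in which they were higher was not counted. Tests of any such genes are conditional on those higher values. Of 37 tested fbxb genes 36 rose in htz-1 against wt (median 3.00), 13 with the allele in daf-2 (median 0.90) and 37 in the triple mutant against its daf-16;daf-2 background (median 3.51). In the triple mutant against daf-2;htz-1, 31 fbxb genes rose (median 2.40), beside 12.8% of all genes, where 3 fbxa genes rose and 29 fell (median -0.49). Of 29 tested fbxc genes, 14 rose and 6 fell in that comparison (median 0.32). In htz-1 against wt 19 of these 29 rose and 0 fell (median 1.26), and in daf-2 10 rose and 2 fell with the allele (median 0.38). In the triple mutant against its daf-16;daf-2 background 21 rose and 3 fell (median 1.065). These are counts of genes in the same libraries, and the difference between the families was not tested. Summed embryo markers were 11.5 to 11.8 in daf-2;htz-1 and 12.5 to 13.8 in the triple mutant, with 5 of the 43 markers at or below 0 in each, and their part in these counts was not tested.

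Across the 97 tested members the range of the 6 genotype means had a median of 1.48, from 0.34 to 5.10, and the residual SD between libraries of a genotype had a median of 0.448. In none of the 9 comparisons were 19 of the members called, and the matching share of all genes was not counted.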

How the data were processed

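Libraries were made with the SMART-Seq2 protocol from total RNA, per the labels' protocols. The submitters' processing notes name bcl2fastq 2.20, kallisto 048.0 and build WBcel235. The deposited values are on a log2 scale, as regularized log (rlog) values per gene per library, and the sources used here do not give the tool that made them. The depth per library is unknown, so no counting interval is given and no count test was run. Such values shrink differences between libraries for genes with few reads.

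Gene symbols and positions came from Ensembl release 115 (WBcel235). Genes with a mean of at least 3 over the 24 libraries (14482) were fitted with limma 3.58.1 (R 4.3.3), with 1 mean per genotype, an intensity trend and 18 residual degrees of freedom. Tests were 2-sided, with Benjamini-Hochberg adjustment over these genes and a threshold of 0.05. The members and lists were chosen with earlier results of these data known. Named were fbxa-75 and fbxa-158, the 5 largest called rises and falls without overlap in each pairwise comparison, and the 3 largest each way in each difference of effects. Other members and comparisons in the text, such as fbxa-32, were chosen after their values were seen. The numbers 1 to 4 mark a labelled batch and so pair the libraries. Same-batch deviations of wt and daf-2 correlated at 0.403 to 0.513, and those of 1 of 15 pairs of genotypes exceeded 0.1 in every batch. Alternatives were other filters, scalings and weights, batch as a term, the groups compared alone, and single libraries or batches left out. No sequence is printed.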

Additional observations from a re-analysis of the deposited data

Results flagged for a closer look

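Of 204 sets of 4 libraries examined, 10 had 1 library far from the other 3, and chance gives about 1 in 20. The low gene fbxa-75 was at 1.34 in daf-2 4 and at 1.07 in daf-16;daf-2 1, above the other libraries of each genotype. Standing high were fbxa-26 in daf-2 2 (6.15), fbxa-164 in wt 4 (2.36), fbxa-66 in wt 2 (2.33) and fbxa-153 in htz-1 4 (8.35). Standing low were fbxa-78 in daf-2;htz-1 4 (6.72), fbxa-59 in htz-1 2 (5.70), and both fbxa-224 (4.55) and fbxa-155 (5.34) in daf-2 1. The summed sperm markers of daf-2 1 were 17.0, the lowest of the 12 libraries without the htz-1 allele, and their part in these values was not tested.

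For 12 results, a test of the difference itself separated the htz-1 effect between backgrounds (limma, adjusted p under 0.05). In daf-2 minus wt the difference was 2.15 for fbxa-196, 1.80 for fbxa-202, 1.68 for fbxa-125, -2.24 for fbxa-151, -1.69 for fbxa-78 and -1.13 for fbxa-153. In daf-16;daf-2 minus daf-2 it was 3.37 for fbxa-151, 1.56 for fbxa-83, 1.5 for fbxa-84, -3.55 for fbxa-99, -3.42 for fbxa-155 and -2.77 for fbxa-196. In daf-2 minus wt, 0 of the 7 higher and 0 of the 3 lower calls held in all 37 settings. In daf-16;daf-2 minus daf-2, 1 of 5 higher and 8 of 22 lower calls did. Leaving out 1 batch ended the first-difference calls of fbxa-196 (1.87 and 2.23), fbxa-202 (1.54 and 1.75), fbxa-125 (1.27) and fbxa-153 (-1.13 to -1.06), and the second-difference calls of fbxa-83 (1.31) and fbxa-84 (1.24 and 1.33). The median over 56 sperm markers was 1.67 for the first difference and -1.79 for the second, and their part in these results was not tested.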

How the results depend on the processing

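No named value changed direction under the 37 settings. The members' median turned from 0.04 to -0.12 with centring and -0.06 with quantile normalization for daf-16 without the allele, and from 0.05 to -0.05 with both for the allele's effect in daf-2 minus wt. It turned from 0.25 to -0.01 with a minimum mean of 5 for the allele in daf-16;daf-2, and from 0.12 to -0.02 with array weights for daf-2 without the allele. Leaving out a library or a batch turned the first median (lowest -0.07) and, without wt 2, the second (-0.05). Of 268 named values, 110 lost their call in at least 1 of them. Counts of called members are named by the allele (htz-1) added in each background, or by daf-2 or daf-16 added with or without that allele. With a minimum mean of 5, fewer genes were tested, and the higher counts were 5 for daf-2 without the allele, 24 for the allele in wt, 27 for the allele in daf-2, 15 for the allele in daf-16;daf-2, 9 for daf-2 with the allele and 3 for the allele's effect in daf-16;daf-2 minus daf-2, with 11 lower for daf-16 without the allele. With no filter, 65 were higher for the allele in daf-2, 7 lower for daf-2 with the allele, 5 higher for daf-16 with the allele, and 7 lower in the allele's effect in daf-2 minus wt. Centring gave 28 lower for daf-16 without the allele, 5 higher for daf-16 with the allele (5 also with quantile normalization) and 8 higher in the effect in daf-16;daf-2 minus daf-2. Quantile normalization gave 6 lower for daf-2 with the allele, beside 10.6% of all genes. With array weights, 5 were lower for daf-2 without the allele, 31 lower for the allele in daf-16;daf-2, 28 higher and 7 lower for daf-2 with the allele, 51 lower for daf-16 with the allele, 13 higher in the effect in daf-2 minus wt and 39 lower in that in daf-16;daf-2 minus daf-2. Fitting only the groups compared gave 4 higher and 1 lower for daf-2 without the allele, and 25 higher and 5 lower for daf-2 with the allele, where leaving out wt 1 and daf-2 1 together also gave 5 lower. The share of all genes called moved with the setting too, as from 24.1% to 33% higher with centring for the allele in daf-16;daf-2. Where a count of members under a setting has no share of all genes beside it, it is not read as particular to the fbxa genes. That holds here and below. For the other moves the cause was not tested.

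With the replicate block, 40 rose and 14 fell for the allele in wt, 39 and 10 for the allele in daf-2, and 30 and 19 for the allele in daf-16;daf-2. It ended the calls of fbxa-59 in the last (0.87, adjusted p = 0.0535) and of skr-3 for daf-16 without the allele (0.92, adjusted p = 0.053), and changed no other named call.

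Leaving out a library or a batch gave 5 to 11 higher and 1 to 4 lower for daf-2 without the allele, and 6 to 20 and 10 to 21 for daf-16 without the allele. It gave 26 to 43 and 9 to 14 for the allele in wt, 28 to 44 and 6 to 12 for the allele in daf-2, and 17 to 35 and 12 to 23 for the allele in daf-16;daf-2. For daf-2 with the allele it gave 6 to 16 and 2 to 4, and for daf-16 with the allele 2 to 4 and 14 to 34. For the allele's effect it gave 1 to 10 and 0 to 4 in daf-2 minus wt, and 1 to 6 and 10 to 26 in daf-16;daf-2 minus daf-2.

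Depth is unknown, so how far low counts limit the 62 members below the mean of 3 cannot be told.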

Other observations

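Lists outside the F-box families were counted in the triple mutant against daf-2;htz-1, where 12.8% of all genes tested rose and 17.4% fell. Of 13 intestine markers 7 rose and 1 fell (median 1.39), of 20 oocyte and germline markers 4 rose (median 0.35), and 9 body muscle markers had a median of 0.16. In htz-1 against wt 8 of the 13 intestine markers fell (median -0.98), beside 24.5% of all genes. Of the 6 cullin genes 1 rose and 4 fell in htz-1 against wt, with cul-6 as the one that rose, and 1 rose and 4 fell with the htz-1 allele in daf-2, beside 26.4% and 24.5% of all genes in the first and 20.4% and 20.1% in the second.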
